A study of Mus musculus with 24 samples.

Results

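The 8 genes described here, Rhox6, Rhox9, Esx1, Plac1, Elf5, Gata3, Tfap2c and Ascl2, are known from the trophoblast and the placenta of the mouse. They were picked by name from the 53465 genes of the deposited expression table, with their difference between Atf3 knockout (KO) and wild-type (WT) cells at day 9 of differentiation already known. Their day 9 values are therefore given as a description without a test, and tests are given only between days 0, 3 and 6. All 8 genes were in the table, and 7 of them passed the filter on low values used for testing, which asked for 1 FPKM or more in 3 or more libraries. FPKM, fragments per kilobase of gene scaled by library, is a level per length, so levels of different genes can be set beside each other. Elf5 did not pass, and Rhox9 passed through 6 libraries of 3 groups, namely KO day 9, WT day 6 and WT day 9.

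RNA-seq was carried out on 12 libraries of Atf3 KO and 12 libraries of WT mouse embryonic stem cells, with 3 libraries of each genotype on day 0, day 3, day 6 and day 9 of a differentiation course. The product of Atf3 is a bZIP transcription factor related to CREB that cells make under stress. The title of the series asks about mesoderm and endothelium, and the 8 genes stand outside that question. The stem cells came from a commercial supplier and were grown in serum with LIF, CHIR99021 and PD0325901, which hold them undifferentiated. The sources used here do not give the edited part of Atf3, the number of KO clones or the differentiation medium. The labels do not say whether replicates were grown as separate cultures, so the p-values measure only the spread among libraries of a group, and that spread may be technical.

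Trophoblast is the first lineage set aside in the mammalian embryo and forms the fetal epithelium of the placenta. In the mouse, Gata3, Tfap2c and Elf5 are transcription factors of its stem cells, Ascl2 is needed for the spongiotrophoblast, and Rhox6, Rhox9, Esx1 and Plac1 are X-linked genes of the developing placenta. Mouse embryonic stem cells rarely enter this lineage in culture, and several of the 8 genes are also used elsewhere: Tfap2c and the Rhox genes in germ cells, and Gata3 and Tfap2c in surface ectoderm.

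Between 7855631 and 25274436 reads per library, with a median of 15611821, were recovered from the FPKM values. A share of 4.42% to 45.6% of them lay in 3 rRNA-type genes, most of all in WT day 6 replicate 3, which had 4272090 reads outside them. Over the 4 days in order, Atf3 in KO cells averaged 9.24%, 4.17%, 10.7% and 3.57% of its level in WT cells, and no KO value reached a WT value of the same day. Within the KO libraries of day 6, replicate 3 stood apart with 4.17 FPKM of Atf3. The labelled cell type was borne out at day 0, where 10 embryonic stem cell markers summed to 3269 to 3479 FPKM in KO cells and 3318 to 3516 FPKM in WT cells. All 10 had fallen by day 6 in both genotypes, where 22.3% of all genes fell in KO cells and 25.2% in WT cells. Several markers that define differentiated trophoblast were at or near 0 throughout, while other genes of the placental list were not. Of 42 other placental lineage genes in the table, 19 never reached 1 FPKM, and the list summed to 527 to 970 FPKM in KO cells and 506 to 626 FPKM in WT cells at day 6. Peg10 alone had 690 FPKM in KO day 6 replicate 3, the library with the highest of these sums. Of the 42, 12 were at 0 in all 24 libraries, among them Prl3d1 of giant cells, Synb of syncytiotrophoblast and Tpbpb of spongiotrophoblast. Tpbpa, the defining spongiotrophoblast marker, reached at most 0.252 FPKM, and Gcm1, which starts syncytiotrophoblast formation, at most 0.374 FPKM. The 8 genes are thus described as genes, and no trophoblast cells are named in these cultures.

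**Figure D1:**
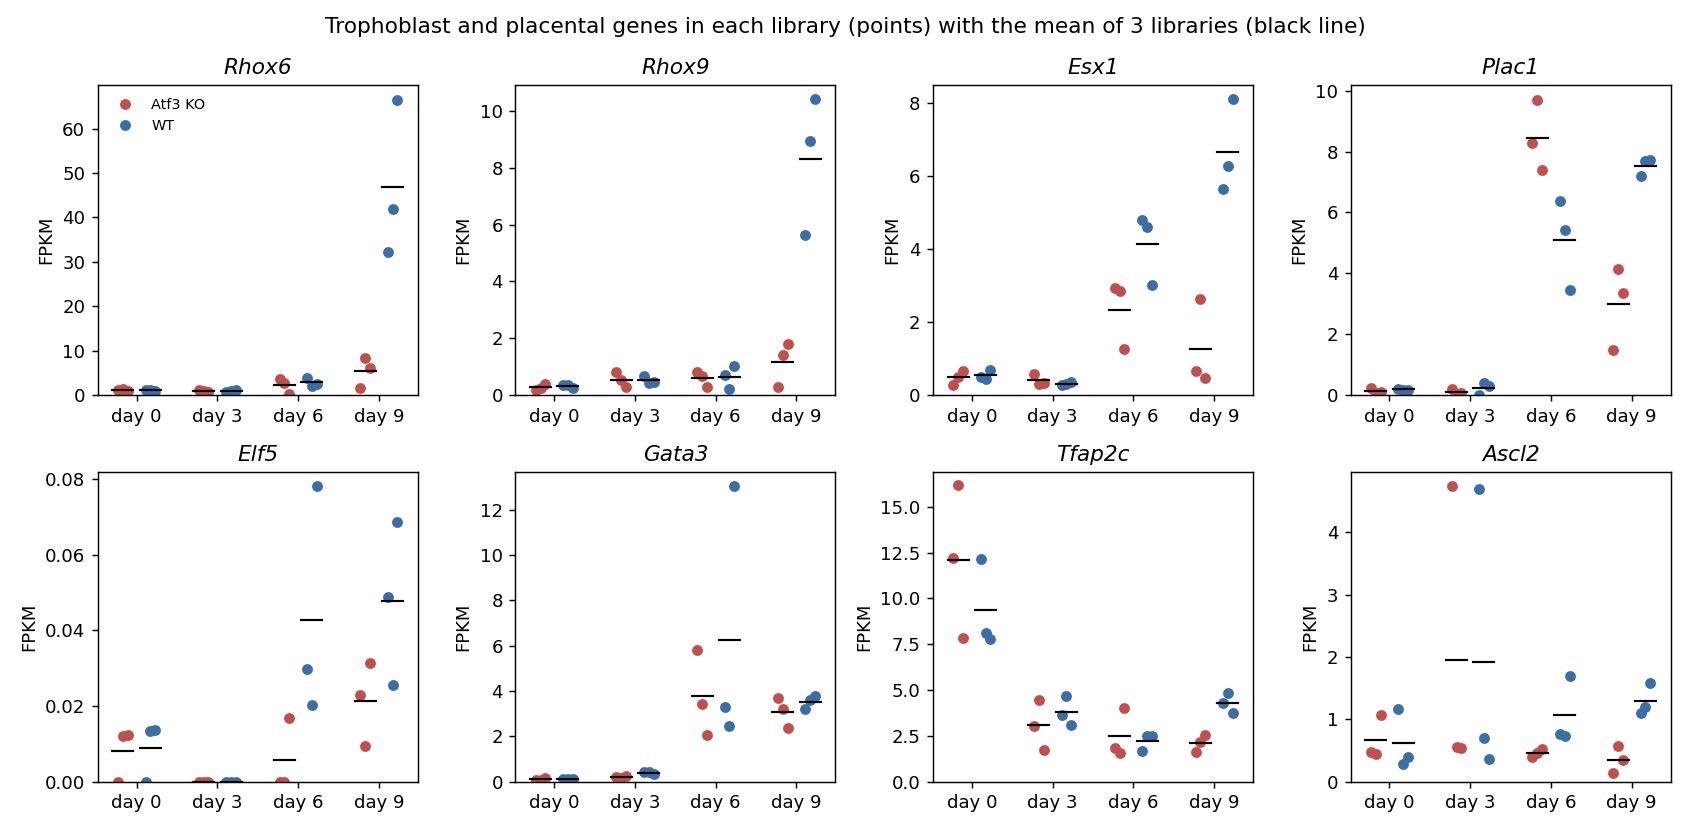
Level of each of the 8 genes in FPKM (vertical axes, each from 0) in every library by day of differentiation (horizontal axes). Red points are KO libraries, blue points WT libraries, and black lines the mean of 3 libraries. Rhox6 reached 32.1 to 66.5 FPKM in the WT libraries of day 9 and at most 8.32 FPKM in any KO library, while Elf5 stayed at or under 0.0780 FPKM throughout.

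Rhox6 (ENSMUSG00000006200, mm10 chromosome X, 37826910 to 37829857, plus strand) and Rhox9 (ENSMUSG00000068048, chromosome X, 37899097 to 37901770, minus strand) encode homeodomain proteins of the reproductive homeobox cluster. Their gene bodies lie 69239 bases apart. Of the 75-base words in their exons, 109 are shared, which is 11.7% of the words of Rhox6 and 4.31% of those of Rhox9, so a small part of either level could have been read from the other gene. Rhox6 was low in both genotypes until day 6 and then separated them. At day 0 it had 1.00 and 1.41 FPKM in KO replicates 1 and 2 and 0.859 FPKM in a KO library that carries no number, against 1.07, 1.16 and 0.868 FPKM in WT replicates 1, 2 and 3. At day 3 the same order of replicates gave 1.01, 0.827 and 0.724 FPKM in KO cells, against 0.559, 0.845 and 1.15 FPKM in WT cells. The ranges of the genotypes overlapped on both days. At day 6 Rhox6 had 3.66, 2.79 and 0.197 FPKM in KO cells, against 3.92, 2.05 and 2.50 FPKM in WT cells. The third KO library, the one with more Atf3, lay under every other library of the series. At day 9 Rhox6 had 1.47, 8.32 and 6.07 FPKM in KO cells, against 32.1, 41.8 and 66.5 FPKM in WT cells. Every WT library lay above every KO library, and the mean of KO cells, 5.29 ± 3.49 FPKM, was 11.3% of that of WT cells, 46.8 ± 17.7 FPKM (SD, n = 3 each). Rhox6 at day 9 in WT cells was the highest level that any of the 8 genes reached in any group.

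Rhox9 followed the same course at a lower level. Its 6 libraries of day 0 lay between 0.188 and 0.378 FPKM in KO cells and between 0.256 and 0.363 FPKM in WT cells. At day 3 Rhox9 had 0.794, 0.542 and 0.265 FPKM in KO cells, against 0.658, 0.419 and 0.467 FPKM in WT cells. At day 6 it had 0.816, 0.653 and 0.279 FPKM in KO cells, against 0.706, 0.214 and 1.01 FPKM in WT cells. The genotypes overlapped on all 3 days, and replicate 3 was the lowest KO library of day 6. At day 9 Rhox9 had 0.271, 1.39 and 1.78 FPKM in KO cells, against 5.65, 8.93 and 10.4 FPKM in WT cells. All WT libraries lay above all KO libraries, and the KO mean of 1.15 ± 0.785 FPKM was 13.8% of the WT mean of 8.33 ± 2.44 FPKM (SD, n = 3 each). In both Rhox genes KO replicate 1 was the lowest of the day 9 libraries. In the fitted model, on the log2(FPKM + 1) scale, the KO minus WT difference at day 9 was -3.07 for Rhox6 and -2.16 for Rhox9. Without KO day 9 replicate 1 it was -2.49 for Rhox6 and -1.82 for Rhox9.

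Esx1 (ENSMUSG00000023443, chromosome X, 137115397 to 137122083, minus strand) encodes a paired-like homeodomain protein that mice need for normal growth of the placenta. As deposited, it was the only one of the 4 X-linked genes with every KO value below every WT value at both day 6 and day 9, and its day 6 ranges overlapped after rescaling to TPM and with equal library sums. At day 0 it had 0.275, 0.502 and 0.656 FPKM in KO cells, against 0.500, 0.434 and 0.683 FPKM in WT cells, and at day 3 0.565, 0.291 and 0.332 FPKM in KO cells, against 0.285, 0.287 and 0.341 FPKM in WT cells. Up to day 3 the genotypes overlapped. At day 6 Esx1 had 2.93, 2.84 and 1.25 FPKM in KO cells, against 4.78, 4.59 and 3.00 FPKM in WT cells. The KO mean of day 6 was 56.7% of the WT mean, with no overlap. At day 9 it had 0.657, 2.63 and 0.466 FPKM in KO cells, against 5.64, 6.26 and 8.10 FPKM in WT cells. KO replicate 2 of day 9 stood above the other KO libraries and still under all WT libraries, and the KO mean of 1.25 ± 1.198 FPKM was 18.8% of the WT mean of 6.67 ± 1.28 FPKM (SD, n = 3 each). The fitted difference at day 9 was -1.88. It was -1.72, -2.29 and -1.63 without KO day 9 replicate 1, 2 or 3.

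Plac1 (ENSMUSG00000061082, chromosome X, 53069995 to 53240111, minus strand) encodes a membrane-associated protein of trophoblast that mice likewise need for placental growth. Its difference between the genotypes turned round between day 6 and day 9. At day 0 Plac1 had 0.223, 0.0510 and 0.104 FPKM in KO cells, against 0.194, 0.169 and 0.171 FPKM in WT cells. At day 3 it had 0.191, 0.0460 and 0.0525 FPKM in KO cells, against 0, 0.408 and 0.277 FPKM in WT cells. The genotypes overlapped at these trace levels, and 3 reads in the library at 0 would have given 0.121 FPKM. At day 6 Plac1 had 8.27, 9.71 and 7.40 FPKM in KO cells, against 6.36, 5.43 and 3.45 FPKM in WT cells. Here every KO library lay above every WT library, and the KO mean was 166% of the WT mean. At day 9 it had 1.48, 4.14 and 3.34 FPKM in KO cells, against 7.20, 7.70 and 7.72 FPKM in WT cells. Now all KO libraries lay below all WT libraries, and the KO mean of 2.99 ± 1.36 FPKM was 39.6% of the WT mean of 7.54 ± 0.291 FPKM (SD, n = 3 each). The fitted log2 difference at day 9 was -1.16. It was -0.85, -1.38 and -1.26 without KO day 9 replicate 1, 2 or 3. Within KO cells the day 9 mean was 0.353 of the day 6 mean, and within WT cells it was 1.48 of it. In both the days did not overlap as deposited, and in KO cells they overlap after rescaling to TPM. Over all genes tested, 7.66% lay lower at day 9 without overlap in KO cells and 14.3% lay higher in WT cells.

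The promoters of these genes were read from the RefSeq windows of GRCm38.p6, the assembly named mm10, which span 250 bases before to 50 bases after an annotated start. Windows were found for 5 of the 8 genes, 7 windows in all. They were searched on both strands for the letters of an ATF/CREB site (CRE, TGACGTCA), an AP-1 site (TGANTCA), an AP-2 site (GCCNNNGGC), a GATA site (AGATAA) and an E-box (CAGCTG), where N is any base and none of the matches found overlap each other. The windows of Esx1, Plac1 and Gata3 are shown because these genes began to be expressed together by day 6, with matches in capitals.
Esx1, chrX:137120277-137120576, minus strand: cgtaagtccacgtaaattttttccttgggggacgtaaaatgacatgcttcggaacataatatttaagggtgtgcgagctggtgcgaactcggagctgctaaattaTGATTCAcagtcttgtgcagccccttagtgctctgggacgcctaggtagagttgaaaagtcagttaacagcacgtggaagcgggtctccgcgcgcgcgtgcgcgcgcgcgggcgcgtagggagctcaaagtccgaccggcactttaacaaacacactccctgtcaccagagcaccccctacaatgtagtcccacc
Plac1 first start, chrX:53240061-53240360, minus strand: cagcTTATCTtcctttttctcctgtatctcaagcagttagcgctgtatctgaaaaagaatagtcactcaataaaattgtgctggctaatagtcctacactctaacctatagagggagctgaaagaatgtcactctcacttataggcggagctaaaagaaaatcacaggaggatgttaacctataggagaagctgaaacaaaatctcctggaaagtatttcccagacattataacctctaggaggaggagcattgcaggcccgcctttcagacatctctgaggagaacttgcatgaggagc
Plac1 second start, chrX:53114356-53114655, minus strand: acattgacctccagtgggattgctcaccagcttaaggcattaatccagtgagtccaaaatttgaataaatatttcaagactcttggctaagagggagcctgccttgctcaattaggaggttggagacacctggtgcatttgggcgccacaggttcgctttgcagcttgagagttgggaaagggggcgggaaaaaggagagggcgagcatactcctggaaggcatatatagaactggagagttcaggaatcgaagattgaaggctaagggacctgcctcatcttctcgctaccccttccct
Gata3, chr2:9878551-9878850, minus strand: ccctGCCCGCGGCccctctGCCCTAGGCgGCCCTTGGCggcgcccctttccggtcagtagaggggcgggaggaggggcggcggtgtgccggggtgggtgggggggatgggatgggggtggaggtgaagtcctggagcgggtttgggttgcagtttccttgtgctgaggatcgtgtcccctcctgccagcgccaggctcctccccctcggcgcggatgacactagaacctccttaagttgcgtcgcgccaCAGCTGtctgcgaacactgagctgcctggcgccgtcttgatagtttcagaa
The Esx1 window held 1 match, to the AP-1 letters, at -145 to -139 from the start. Those letters were found in 7.81% of all 32851 windows of the table. The window of the first Plac1 start held the GATA letters, written on the opposite strand, at -246 to -241 (11.2% of all windows), and that of the second start held none of the 5. Gata3 held the AP-2 letters 3 times between -246 and -213 (16.6% of all windows) and an E-box across the start at -1 to 4 (16.3% of all windows). The first of 2 Elf5 windows held 1 E-box at -187 to -182, and the second Elf5 window and the Ascl2 window held none of the 5. The CRE letters, present in 1.79% of all windows, were in none of the 7. In base composition the windows of Gata3 and Ascl2 were rich in G and C (67.3% and 67.0%, with 22 and 23 CpG), against a median of 52.7% and 7 CpG over all windows, while the Plac1 windows had 42.7% and 49.7% with 3 and 6 CpG. Esx1 was near the median in G and C, at 54.0%, and had 24 CpG. A match is a run of letters in a window of 300 bases and not a measured binding site.

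**Figure D2:**
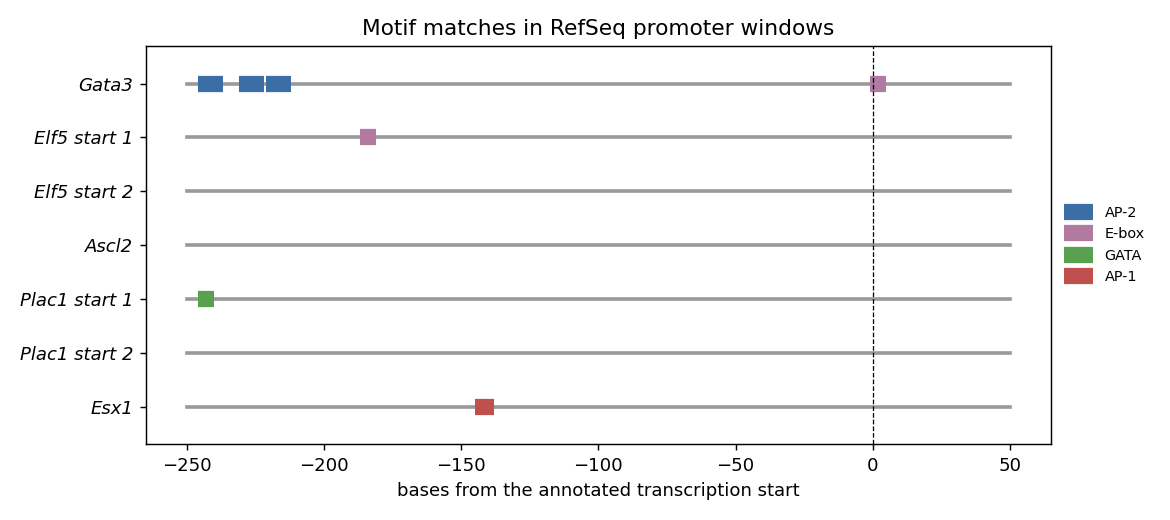
Position of each motif match (coloured blocks) in the 7 RefSeq promoter windows (grey lines) of 5 genes, in bases from the annotated start (dashed line). Gata3 had 4 matches, Esx1, Elf5 and Plac1 had 1 each, and the second starts of Elf5 and Plac1 and the Ascl2 window had none.

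Elf5 (ENSMUSG00000027186, chromosome 2, 103411688 to 103450989, plus strand) encodes an ETS factor that maintains trophoblast stem cells. It was close to undetected, with 40 reads over all 24 libraries and at most 10 in 1 library. At day 3 it was at 0 in all 6 libraries, where 3 reads would have given 0.0273 to 0.0374 FPKM in KO cells and 0.0288 to 0.0494 FPKM in WT cells. At day 6 Elf5 had 0, 0 and 0.0169 FPKM in KO cells, against 0.0299, 0.0201 and 0.0780 FPKM in WT cells, and the gap between the genotypes there rests on at most 2 reads per library. At day 9 it had 0.0229, 0.00935 and 0.0314 FPKM in KO cells, against 0.0487, 0.0255 and 0.0687 FPKM in WT cells, and the ranges overlapped. No difference in Elf5 was detectable at this depth.

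Gata3 (ENSMUSG00000015619, chromosome 2, 9857078 to 9890034, minus strand) encodes a zinc-finger factor that acts in trophectoderm and in many later tissues. It rose with differentiation in both genotypes and was the member with the smallest difference at day 9. Its exons share 155 bases with Gm13256 on the opposite strand and 77 bases with 9230102O04Rik on the same strand, so part of its level is uncertain. At day 0 Gata3 lay between 0.0536 and 0.182 FPKM in KO cells and between 0.0985 and 0.136 FPKM in WT cells. At day 3 it had 0.188, 0.178 and 0.239 FPKM in KO cells, against 0.426, 0.429 and 0.316 FPKM in WT cells. All KO libraries lay below all WT libraries on that day, with the KO mean at 51.6% of the WT mean. At day 6 Gata3 had 5.80, 3.43 and 2.05 FPKM in KO cells, against 3.29, 2.46 and 13.03 FPKM in WT cells. The high WT value came from replicate 3, the library with 45.6% of its reads in rRNA-type genes, and the part of that share in the value was not tested. At day 9 it had 3.67, 3.19 and 2.35 FPKM in KO cells, against 3.22, 3.59 and 3.79 FPKM in WT cells. The genotypes overlapped, with means of 3.07 ± 0.669 FPKM in KO cells and 3.53 ± 0.291 FPKM in WT cells (SD, n = 3 each).

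Tfap2c (ENSMUSG00000028640, chromosome 2, 172549593 to 172558622, plus strand) encodes the factor AP-2 gamma, which is used in trophectoderm, germ cells and surface ectoderm. It was the only one of the 8 genes that was highest in undifferentiated cells. At day 0 Tfap2c had 12.2, 16.2 and 7.85 FPKM in KO cells, against 12.2, 8.14 and 7.78 FPKM in WT cells. At day 3 it had 3.04, 4.43 and 1.73 FPKM in KO cells, against 3.64, 4.67 and 3.10 FPKM in WT cells, and at day 6 1.83, 1.56 and 4.02 FPKM in KO cells, against 1.65, 2.48 and 2.49 FPKM in WT cells. The genotypes overlapped on each of these days. At day 9 Tfap2c had 1.64, 2.17 and 2.56 FPKM in KO cells, against 4.30, 4.86 and 3.75 FPKM in WT cells. Day 9 separated the genotypes, with a KO mean of 2.12 ± 0.464 FPKM at 49.3% of the WT mean of 4.30 ± 0.555 FPKM (SD, n = 3 each), while rescaling every library to the same sum (TPM) brought the ranges to overlap.

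Ascl2 (ENSMUSG00000009248, chromosome 7, 142966829 to 142969264, minus strand) encodes a basic helix-loop-helix factor and is expressed from the maternal allele in the mouse placenta. Its spread followed the replicate number at day 3 and the genotype at day 9. At day 0 Ascl2 had 0.480, 0.438 and 1.07 FPKM in KO cells, against 1.17, 0.290 and 0.393 FPKM in WT cells. At day 3 it had 4.74, 0.554 and 0.541 FPKM in KO cells, against 4.70, 0.701 and 0.358 FPKM in WT cells. Replicate 1 was high in both genotypes, above every other library of the series. At day 6 Ascl2 had 0.398, 0.467 and 0.520 FPKM in KO cells, against 0.758, 0.730 and 1.70 FPKM in WT cells, and at day 9 0.138, 0.576 and 0.342 FPKM in KO cells, against 1.09, 1.2001 and 1.58 FPKM in WT cells. On both days all KO libraries lay below all WT libraries, with the KO mean at 43.5% of the WT mean at day 6 and 27.3% at day 9. Ascl2 was read 5 to 144 times per library, 662 times in all, so its low values are coarse.

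The number of the 8 genes whose KO and WT ranges stood apart differed by day. At day 0 the ranges of KO and WT overlapped for all 8, while 4.11% of all genes tested lay below and 3.4% above without overlap. At day 3 the KO values lay below the WT values for 1 of 8, Gata3, where 2.3% of all genes did so. At day 6 they lay below for 3 of 8, namely Esx1, Elf5 and Ascl2, where 3.73% of all genes tested did, and above for 1 of 8, Plac1, where 4.18% did. Elf5 was not among the genes tested. It had 0 reads in KO replicates 1 and 2, 2 in KO replicate 3 and 2 in each WT library of day 6, so in reads its ranges meet. Its gap in FPKM was kept with equal library sums and lost under TPM. At day 9 they lay below for 6 of 8, all but Elf5 and Gata3, against 4.08% of all genes, and the choice of the genes used that difference. Rescaling every library to TPM left 5 of 8 at day 9, without Tfap2c, and 0 at days 3 and 6. Over the 4 days in order, the median KO minus WT log2 difference of the 7 genes tested was -0.02, 0.01, -0.39 and -1.16, and that of all 15159 genes tested was -0.01, -0.02, 0.02 and 0.01. At day 6 the middle 90% of all genes ran from -0.58 to 0.61, and at day 9 from -0.39 to 0.42. In these bulk samples fewer cells of a type and less RNA per cell cannot be told apart.

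In limma none of the 7 genes tested passed the threshold of 0.05 on the adjusted p between KO and WT at days 0, 3 or 6. Over all genes 0.0132% were called at day 0, 0.0132% at day 3 and 0.726% at day 6. At an unadjusted p under 0.05 there were 0 of the 7 at days 0 and 3 and 2 at day 6, Plac1 and Esx1, and voom on the recovered reads also called 0 at each day. The KO minus WT log2 difference of Plac1 at day 6 was 0.66 (95% interval 0.21 to 1.11, adjusted p = 0.228), higher in 3 of 3 KO libraries than in any WT library. For Esx1 it was -0.64 (-1.20 to -0.09, adjusted p = 0.409). Ascl2 differed by -0.46 (-1.40 to 0.47), Rhox6 by -0.44 (-1.34 to 0.46) and Gata3 by -0.39 (-1.10 to 0.32), with adjusted p = 0.664 to 0.691. After rescaling to TPM the median of all genes at day 6 was 0.55, against 0.02 as deposited, and the differences moved with it. Plac1 then differed by 1.28, Tfap2c by 0.60, Rhox9 by 0.29, Gata3 by 0.24, Ascl2 and Rhox6 by -0.14 each and Esx1 by -0.19, none of them called. Rhox9, at -0.04 (-0.57 to 0.49), and Tfap2c, at 0.06 (-0.53 to 0.65), had intervals that leave room for differences in either direction. Neither interval reached down to the -0.64 of Esx1. At days 0 and 3 the adjusted p was 1 for all 7 genes. The outermost differences of those days belonged to Tfap2c, 0.31 at day 0 (-0.28 to 0.90) and -0.28 at day 3 (-0.87 to 0.30).

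**Figure D3:**
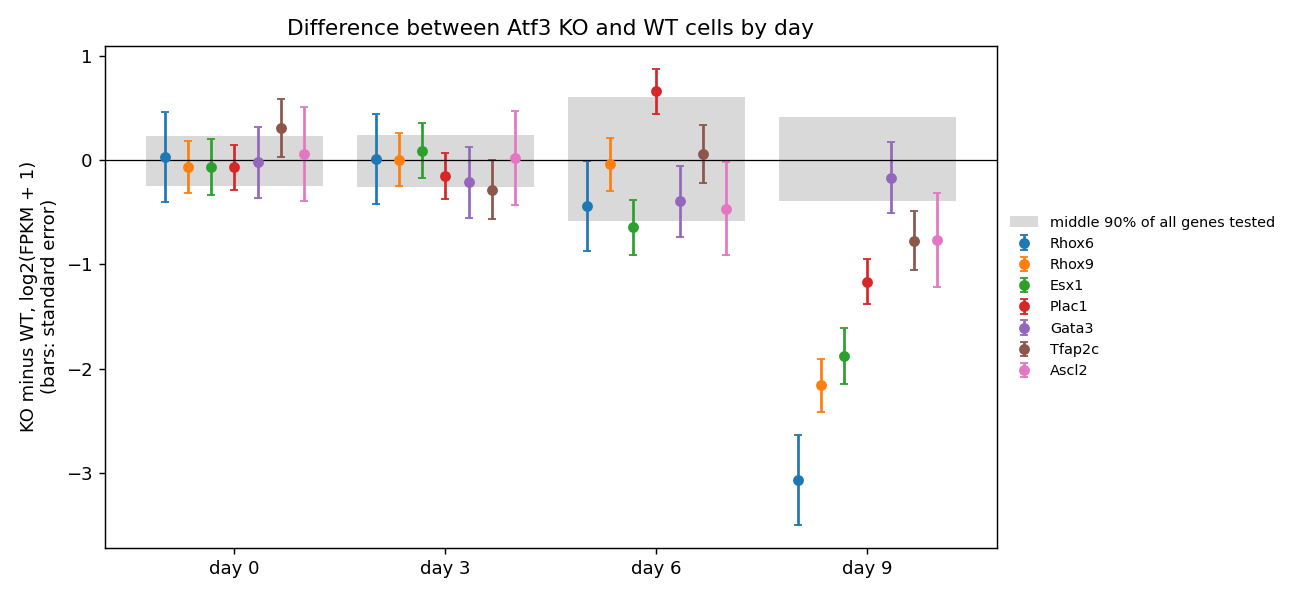
KO minus WT difference of 7 genes on the log2(FPKM + 1) scale (vertical axis) by day (horizontal axis), with standard errors from the fit across all genes as bars and the middle 90% of all genes tested as grey boxes. The points lie about 0 at days 0 and 3, Plac1 is at 0.66 at day 6 and -1.16 at day 9, and Rhox6 reaches -3.07 at day 9.

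Differentiation itself changed 4 of the 7 genes by day 6 in each genotype, the same 4. Plac1, Gata3 and Esx1 rose and Tfap2c fell. Over all genes 21.4% rose and 22.3% fell in KO cells, and 22.5% rose and 25.2% fell in WT cells, so changes by day 6 were common. The share of called genes that rose was 48.9% in KO cells and 47.2% in WT cells, and moved to 73.6% in KO cells under TPM and 37.1% in WT cells with equal library sums. From day 0 to day 6 Plac1 rose by a log2 difference of 3.07 in KO cells (adjusted p = 5.12e-10) and 2.34 in WT cells (adjusted p = 2.88e-08). Gata3 rose by 2.04 in KO cells (adjusted p = 5.66e-05) and 2.41 in WT cells (adjusted p = 7.84e-06). Esx1 rose by 1.14 in KO cells (adjusted p = 0.00157) and 1.72 in WT cells (adjusted p = 2.33e-05). These 3 genes lay higher at day 6 than at day 0 in all 3 libraries of both genotypes without overlap, as did 26.1% of all genes in KO cells and 26.2% in WT cells. Tfap2c fell by 1.93 in KO cells (adjusted p = 1.16e-05) and fell by 1.68 in WT cells (adjusted p = 5.75e-05). For Rhox6 the difference was 0.41 in KO cells (adjusted p = 0.465) and 0.88 in WT cells (adjusted p = 0.099), and KO cells passed the threshold once KO day 6 replicate 3 was left out (1.02, adjusted p = 0.0344). Rhox9 and Ascl2 did not pass in either genotype. Rhox9 had 0.31 in KO cells and 0.29 in WT cells, and Ascl2 had -0.17 in KO cells and 0.36 in WT cells.

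By day 3 only Tfap2c had passed, with a log2 difference from day 0 of -1.69 in KO cells (adjusted p = 1.05e-04) and -1.10 in WT cells (adjusted p = 0.00602), where 16.2% of all genes fell in KO cells and 14.5% in WT cells. The WT call at day 3 was lost after rescaling to TPM (-1.05, adjusted p = 0.211). The change from day 0 to day 6 was compared between the genotypes as an interaction, and 0 of the 7 genes passed in limma, with 0.112% of all genes called. Plac1 alone had an unadjusted p under 0.05, and voom also called 0. Its change was larger in KO cells by 0.73 (95% interval 0.09 to 1.37, adjusted p = 0.956), and that of Esx1 differed by -0.58 (-1.37 to 0.21, adjusted p = 0.956).

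Ranked by mean level over the 8 groups of genotype and day, Rhox6 and Rhox9 shared the order WT day 9, KO day 9, WT day 6 and KO day 6 at the top. In both genes WT day 9 stood apart from KO day 9, and KO day 9, WT day 6 and KO day 6 overlapped in sequence. For Rhox6 the 4 groups of days 0 and 3 also overlapped, from 1.09 FPKM in KO day 0 to 0.851 FPKM in WT day 3. For Rhox9 these groups came in the order KO day 3, WT day 3, WT day 0 and KO day 0, with a gap between WT day 3 (0.515 ± 0.127 FPKM) and WT day 0 (0.322 ± 0.0573 FPKM; SD, n = 3 each). Esx1 ran WT day 9, WT day 6, KO day 6, KO day 9, and then the 4 earlier groups, with WT day 9 apart from WT day 6 and WT day 6 apart from KO day 6. Plac1 was highest in KO day 6, which overlapped WT day 9, followed by WT day 6, which stood apart from WT day 9 and overlapped KO day 9. KO day 9 in turn stood apart from the 4 groups at trace level.

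Gata3 ran WT day 6, KO day 6, WT day 9 and KO day 9, all of them overlapping their neighbours, with KO day 9 apart from WT day 3, WT day 3 from KO day 3 and KO day 3 from WT day 0. Tfap2c was highest in KO day 0, overlapping WT day 0, which stood apart from the third group, WT day 9. From there every group overlapped the next, through WT day 3, KO day 3, KO day 6 and WT day 6 to KO day 9. Ascl2 ran KO day 3, WT day 3, WT day 9, WT day 6, KO day 0, WT day 0, KO day 6 and KO day 9, each overlapping the next. Elf5 could not be ordered at its levels.

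The 8 genes did not share 1 pattern over the 24 libraries. As a description, with days and any shared culture, depth or batch common to all genes of a library, Pearson's r of log2(FPKM + 1) was 0.955 between Rhox6 and Rhox9, 0.868 between Esx1 and Plac1, 0.860 between Plac1 and Gata3 and 0.801 between Rhox6 and Esx1. Rhox9 and Gata3 had 0.473. Tfap2c ran against the others, with r from -0.631 with Gata3 to -0.0230 with Ascl2, and Ascl2 lay between -0.111 and 0.264 with all others. Outside the 8 genes, the patterns most like Rhox6 were those of Kng1 (r = 0.954), Nepn (0.949) and Dlk1 (0.946), and those most like Rhox9 were Kng1 (0.949), Gkn1 (0.942) and Gkn2 (0.936). Dlk1 averaged 4.77 FPKM in KO cells and 47.2 FPKM in WT cells at day 9, and Nepn 8.82 FPKM in KO cells and 28.4 FPKM in WT cells. For Esx1 they were Igfbp6 (0.913), Nxf7 (0.909) and Epn3 (0.905), for Plac1 Psca (0.978), Ttr (0.967) and Cpm (0.967), and for Gata3 Mxd4 (0.974), Sfi1 (0.970) and Cplx2 (0.968). Psca, like Plac1, was at its highest at day 9 in WT cells and at day 6 in KO cells, with 9.72 FPKM in KO cells and 8.52 FPKM in WT cells at day 6 and 4.40 FPKM in KO cells and 10.1 FPKM in WT cells at day 9.

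Slc52a3 (0.916), Pramef12 (0.914) and Galnt6os (0.913) were nearest to Tfap2c. Nearest to Ascl2 were Hilpda (0.807), Efna3 (0.795) and Ankrd37 (0.760), and all 3 shared its high first replicate at day 3. Hilpda had 58.4, 8.62 and 5.90 FPKM in KO replicates 1, 2 and 3 of that day, against 49.8, 11.004 and 7.63 FPKM in WT replicates. Ankrd37 had 8.05, 0.668 and 0.903 FPKM in KO cells, against 6.75, 0.801 and 0.629 FPKM in WT cells. At day 3 the libraries with equal numbers deviated together over all genes, with correlations of 0.655, 0.614 and 0.599 for replicates 1, 2 and 3.

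Other genes of the trophoblast programme were examined through lists that were put together with earlier results of these data known. From day 0 to day 6, 13 of 25 tested genes of trophoblast stem cells and the ectoplacental cone rose and 5 fell in KO cells. In WT cells 13 of them rose and 6 fell. Over all genes 21.4% rose and 22.3% fell in KO cells, and 22.5% rose and 25.2% fell in WT cells. Hand1, Krt18 and Krt8, which rose most in this list, are general epithelial or mesodermal genes as well. Cdx2, a trophoblast stem factor of the list, averaged 0.753 FPKM at day 0 and 35.8 FPKM at day 6 in KO cells. In WT cells Cdx2 averaged 0.543 and 31.0 FPKM on these days. By day 9 its mean was 2.16 FPKM in KO cells and 4.57 FPKM in WT cells. Eomes averaged 2.895 FPKM at day 0 and 1.22 FPKM at day 6 in KO cells, and 4.27 and 5.11 FPKM in WT cells. Hand1, a factor of both giant cells and extraembryonic mesoderm, rose by a log2 difference of 6.30 in KO cells and 6.10 in WT cells, and Krt18, an epithelial keratin, by 6.16 in KO cells and 6.05 in WT cells. Esrrb, a factor of both trophoblast stem and embryonic stem cells, fell by 5.95 in KO cells and fell by 5.83 in WT cells. Between KO and WT 0 of the 25 passed in limma at day 6 and 0 at day 9, with 5 and 7 at an unadjusted p under 0.05 and medians of -0.02 and -0.10. The share of all genes at that unadjusted threshold is not given, so such counts stand without a background here and below. The list summed to 2081 to 2958 FPKM in KO cells and 2230 to 2852 FPKM in WT cells at day 6, and to 930 to 1394 FPKM in KO cells and 1312 to 2068 FPKM in WT cells at day 9. Krt18, its most abundant gene, averaged 459 ± 134 FPKM in KO cells and 713 ± 203 FPKM in WT cells at day 9 (SD, n = 3 each, log2 difference -0.64, adjusted p = 0.448). Krt8 averaged 423 FPKM in KO cells and 630 FPKM in WT cells at day 9. These keratins made up most of the sum of the list at days 6 and 9.

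Of 21 tested placental lineage genes, 12 rose and 3 fell by day 6 in KO cells, where 21.4% of all genes rose and 22.3% fell. In WT cells 13 of the 21 rose and 3 fell, where 22.5% of all genes rose and 25.2% fell. Peg10 and Peg3, imprinted genes of placenta and of mesoderm, were among the highest risers, Peg10 by 4.40 in KO cells and 3.53 in WT cells and Peg3 by 4.096 in KO cells and 3.61 in WT cells. Between KO and WT 0 of the 21 passed in limma at day 6, with 3 at an unadjusted p under 0.05, and 2 were lower in KO at day 9, where 0.963% of all genes were called and 0.495% were lower (48.6% of the called genes were higher, 67.4% under TPM). Gjb2, a connexin that joins the syncytiotrophoblast layers of the mouse placenta and is made in other epithelia, had 1.18, 1.05 and 1.49 FPKM in KO cells, against 5.06, 4.17 and 3.27 FPKM in WT cells (log2 difference -1.20, adjusted p = 7.06e-04). Plac8, a gene of placenta and of blood cells, had 2.40, 4.42 and 4.09 FPKM in KO cells, against 5.76, 9.85 and 12.3 FPKM in WT cells (log2 difference -1.13, adjusted p = 0.0171). Neither overlapped between the genotypes. The call of Plac8 was lost without KO replicate 1, WT replicate 2 or WT replicate 3 of day 9 (adjusted p = 0.107 to 0.161), and both calls were lost in a fit of those 2 groups, with a pseudocount of 0.1 and after rescaling to TPM.

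Of the 29 other Rhox genes in the table, 5 were at 0 in all libraries and 27 never reached 1 FPKM. Rhox5, the gene of the cluster best known from stem cells and the extraembryonic lineages, was the one that could be tested. At day 6 Rhox5 had 6.86, 6.25 and 4.21 FPKM in KO cells, against 13.8, 11.7 and 13.1 FPKM in WT cells (log2 difference -1.05, adjusted p = 0.301). At day 9 it had 11.7, 28.6 and 22.2 FPKM in KO cells, against 28.9, 49.5 and 62.8 FPKM in WT cells (-1.16, adjusted p = 0.298). The KO values of Rhox5 lay below the WT values on both days, and neither difference passed the threshold.

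Ascl2 lies in the imprinted domain of Kcnq1 on chromosome 7. Of 7 other tested genes of that domain, 1 rose and 2 fell from day 0 to day 6 in KO cells, and 4 rose and 0 fell in WT cells. Over that step 21.4% of all genes rose and 22.3% fell in KO cells, and 22.5% rose and 25.2% fell in WT cells. At day 6, where 0.495% of all genes were lower in KO cells (31.8% of the called genes were higher, 60.5% under TPM), and at day 9, 1 of the 7 was lower. This was Cdkn1c, a growth inhibitor that is also expressed from the maternal allele. It had 1.72, 0.770 and 0.584 FPKM in KO cells, against 5.82, 4.76 and 6.64 FPKM in WT cells at day 6 (log2 difference -1.77, adjusted p = 7.79e-04), and 2.01, 4.69 and 4.39 FPKM in KO cells, against 7.96, 10.8 and 11.7 FPKM in WT cells at day 9 (-1.29, adjusted p = 0.008). The genotypes were apart on both days. From day 0 to day 6 Cdkn1c fell by 0.77 in KO cells and rose by 1.24 in WT cells. Its day 6 call was lost after rescaling to TPM or in a fit of those 2 groups (adjusted p up to 0.362). The day 9 call was lost in these settings, with a pseudocount of 0.1 and without KO replicate 1, WT replicate 2 or WT replicate 3 (adjusted p = 0.0521 to 0.0768 without 1 library). Cd81, the most abundant gene of the list, differed by -0.06 at day 6 and -0.03 at day 9. Over all 13 genes the domain summed to 140 to 152 FPKM in KO cells and 133 to 183 FPKM in WT cells at day 9.

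Markers of other cell types that can carry the 8 genes were measured in the same libraries. Of their FPKM sums as deposited, only that of yolk sac and visceral endoderm stood apart between the genotypes at day 9. The sum of 25 yolk sac and visceral endoderm markers was 2509, 2135 and 417 FPKM in KO cells and 1165, 631 and 1089 FPKM in WT cells at day 6, and 238, 618 and 645 FPKM in KO cells and 690, 835 and 1216 FPKM in WT cells at day 9. KO day 6 replicate 3, which was lowest in Rhox6, was the lowest library of day 6 in this sum. At day 9 every KO library lay below every WT library in FPKM as deposited. Total FPKM was 355334 in KO replicate 3 and 475554 in WT replicate 2 of day 9, and rescaling these sums to TPM reverses their order. The ranges of the genotypes then overlap. Of the 21 tested genes 0 were called in limma at day 9, with 10 at an unadjusted p under 0.05 (median -0.74). Not every marker averaged lower in KO cells at day 9. Afp had 83.8 FPKM in KO cells and 79.7 FPKM in WT cells, Gata6 30.9 and 24.7 FPKM, and Gata4 18.8 and 16.4 FPKM. Apoe, the most abundant marker, averaged 121 FPKM in KO cells and 203 FPKM in WT cells. It already had 172 and 200 FPKM at day 0. At day 6, where 0.726% of all genes were called, 1 of the 21 was higher and 1 lower in KO cells, Fgb at 1.56 and Cer1 at -3.05. Fgb, a fibrinogen chain, was called in 4 of 14 alternatives. Its call was lost without KO replicate 1, KO replicate 2 or WT replicate 3 of day 6 (adjusted p = 0.0777 to 0.267), with a pseudocount of 0.1, with no filter, after either rescaling, in a fit of those 2 groups and with voom. Cer1, a secreted antagonist of Nodal and BMP, was at 0 in all 3 KO libraries and averaged 7.63 ± 3.02 FPKM in WT cells at day 6 (SD, n = 3), the group through which it passed the filter, and its call was lost in a fit of those 2 groups (adjusted p = 0.306).

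Of 13 tested markers of extraembryonic mesoderm and allantois, 1 was higher at day 6 (Hoxa10, 0.73), and 4 were lower at day 9, where 0.495% of all genes were lower, Tbx4 (-1.29), Hoxa11 (-0.98), Hoxa13 (-0.92) and Hoxa10 (-0.73). All 4 day 9 calls were lost with a pseudocount of 0.1, after rescaling to TPM and in a fit of those 2 groups, and those of the 3 Hoxa genes also with voom (adjusted p = 0.103 to 0.297). The day 6 call of Hoxa10 was lost in these settings, voom included, and with equal library sums, which also ended its day 9 call. Hoxa10 was also no longer called without any 1 of 4 libraries of day 6 (KO replicates 2 and 3, WT replicates 1 and 3; adjusted p = 0.079 to 0.142) or without KO replicate 1 or WT replicate 2 of day 9 (up to 0.143), nor Hoxa11 without KO replicate 1, WT replicate 2 or WT replicate 3 of day 9 (0.0825 to 0.115). Their sum at day 9 was 151 to 273 FPKM in KO cells and 217 to 324 FPKM in WT cells. Of 13 tested markers of surface ectoderm and amnion, Wnt6 alone was called, with a log2 difference of -1.44 at day 6 and -1.20 at day 9. Its day 6 call was lost after rescaling to TPM (adjusted p = 0.294) and in a fit of those 2 groups (0.640), and its day 9 call with a pseudocount of 0.1 (0.056) and in a fit of those 2 groups (0.274). The sum of these surface markers at day 9 was 190 to 273 FPKM in KO cells and 263 to 295 FPKM in WT cells. None of 12 tested germ cell markers passed in limma at either day, with 1 at an unadjusted p under 0.05 at day 6 and 2 at day 9, and their sum at day 9 was 64.6 to 131 FPKM in KO cells and 95.3 to 183 FPKM in WT cells. The part of these markers in the levels of the 8 genes was not tested.

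**Figure D4:**
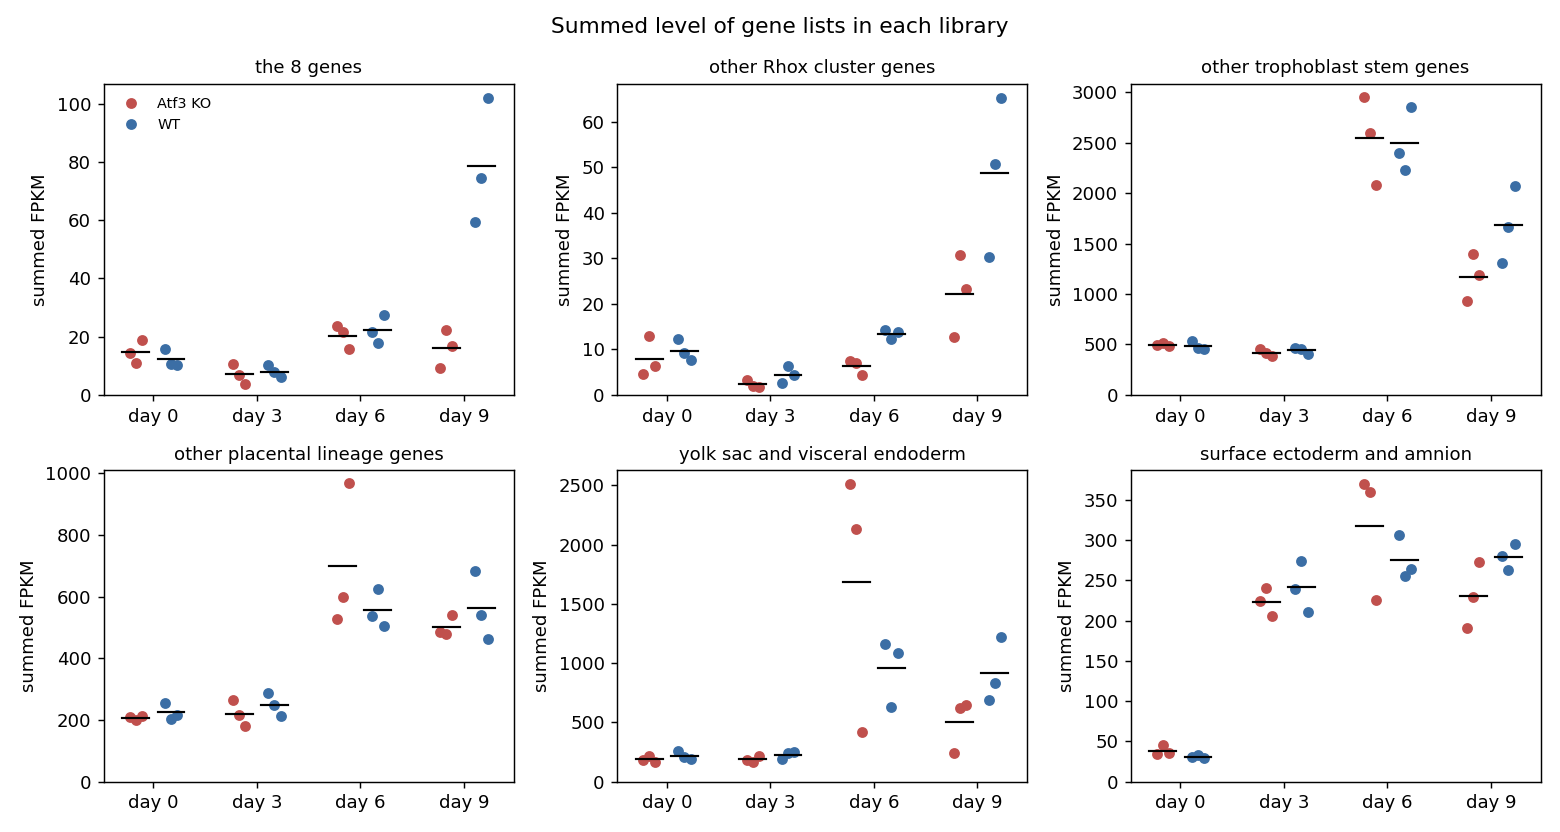
Summed FPKM (vertical axes, each from 0) of the 8 genes and of 5 gene lists in every library by day (horizontal axes), with KO libraries in red, WT libraries in blue and the mean of 3 libraries as black lines. At day 9 the 8 genes summed to 9.35 to 22.4 FPKM in KO cells and 59.3 to 102 FPKM in WT cells, and the yolk sac and visceral endoderm markers to 238 to 645 FPKM in KO cells and 690 to 1216 FPKM in WT cells. The ranges of the yolk sac and visceral endoderm markers overlap after rescaling to TPM.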

How the data were processed

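Poly(A)+ RNA was sequenced with paired ends, per the labels' protocols. The submitters' processing notes name mm10, R 4.1.0, DESeq2 1.30.1, Trimmomatic 0.39, FastQC 0.11.9, featureCounts 2.0.1 and HISAT2 2.2.1. The deposited table holds FPKM per gene, and the sources used here do not give how the authors scaled it. No strand is stated for the counting. With GENCODE vM21 exon lengths the FPKM fell on steps that were taken as 1 read, and 95.5% to 96.9% of values of at most 50 reads lay within 0.05 of a whole number. A KO day 0 column bears a genotype and a day that fit its group and no usable replicate number. Floors of 3 reads cover counting error only.

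Genes that reached 1 FPKM in 3 or more libraries (15159) were taken as log2(FPKM + 1) and fitted in limma 3.58.1 (R 4.3.3) over 8 groups with a trended prior, two-sided, with Benjamini-Hochberg adjustment over all genes tested. This scale understates the change of low genes. Intervals are 95% intervals of the fit. The procedure was tested on simulated data. Alternatives were another pseudocount, other filters, TPM, equal sums without the 3 rRNA-type genes (Gm42418, CT010467.1, Gm23935), a replicate block, the compared groups alone, voom on the recovered reads and leaving out each library. The main fit used group means without pairing, also at day 3, and the replicate block was run for every comparison. Deviations of equally numbered KO and WT libraries correlated over 0.1 in all 3 pairs of day 3. On no other day did all pairs do so. The 8 genes and all lists were chosen with earlier results of these data known. Of each list the text names up to 4 called genes with the largest change, or the most abundant one. Genes of like pattern are the 3 with the highest r, passing over predicted genes and genes under 2 FPKM in every group.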

Additional observations from a re-analysis of the deposited data

Results flagged for a closer look

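Plac1 moved in opposite directions from day 6 to day 9 in the 2 genotypes. Its mean FPKM of day 9 was 0.353 of that of day 6 in KO cells and 1.48 of that of day 6 in WT cells. As deposited, the days did not overlap in either genotype. Total FPKM was 899542 in KO day 6 replicate 1 and 355334 in KO day 9 replicate 3. After rescaling to TPM the days overlap in KO cells and stay apart in WT cells. Of all genes called between these days in WT cells, 61.4% were higher at day 9 as deposited and 97.9% under TPM. The difference between the genotypes was not tested, since the gene was chosen with day 9 known.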

How the results depend on the processing

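None of the 7 genes passed between KO and WT at days 0, 3 or 6 under any alternative, leave-one-out included (0 to 0). For single genes 825 results of alternatives kept their side of the threshold, 4 newly passed, 1 no longer passed, and no called direction turned. At WT day 3 against day 0 the count of genes called was 1, 0 under TPM and 2 in a fit of the compared groups only, where Gata3 passed too (adjusted p = 0.0209), and the cause was not tested. From day 0 to day 6 leaving out 1 library gave 4 to 5 genes in KO cells and 4 in WT cells, and 1 gene from day 0 to day 3 in both. Rhox6 from day 0 to day 6 passed in KO cells without KO replicate 3, or without replicate 3 of both genotypes at day 6 (adjusted p = 0.0363, chosen after seeing the data), and in WT cells with the compared groups alone (adjusted p = 0.0172). With the replicate block the counts were unchanged, 4 in KO cells and 4 in WT cells from day 0 to day 6, 1 in each by day 3, and 0 between KO and WT. At day 9 the count of genes with KO below WT was 6, 6 to 7 without 1 library and 5 under TPM. At days 3 and 6 TPM left 0 genes without overlap, and equal sums without the rRNA-type genes left 2 below and 1 above at day 6. Under TPM the median difference of all genes between KO and WT over the 4 days in order was 0.12, 0.19, 0.55 and 0.07. Over all genes KO and WT differed in 110 genes at day 6 and 146 at day 9, in 0 and 1 with the compared groups alone, 38 and 89 under TPM (60.5% and 67.4% higher, against 31.8% and 48.6%), 31 and 43 with the stricter filter, 77 and 36 with a pseudocount of 0.1, 52 and 119 with voom, 70 and 168 with equal sums, 166 and 153 with the block, and 167 and 263 with no filter.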

Other observations

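Of the 8 genes 4 lie on chromosome X, and other X-linked genes were looked at for that reason after their values were seen. At day 9, 6 of 474 tested X-linked genes outside the 8 were lower in KO than in WT cells (1.27%) and 1 was higher, against 65 of 14666 genes on other chromosomes that were lower (0.443%) and 70 that were higher. At day 6, 4 of these 474 X-linked genes were higher (0.844%) and 1 was lower (0.211%). Of the 14666 genes on other chromosomes 31 were higher (0.211%) and 74 were lower (0.505%). The median KO minus WT log2 difference of the X-linked genes outside the 8 was 0.13 at day 6 and -0.06 at day 9.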
